A study of Mus musculus with 3 samples.

Results

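The genes described here are 10 genes of macrophages: *Cd68*, *Lyz2*, *Csf1r*, *Adgre1*, *Mrc1*, *C1qa*, *C1qb*, *C1qc*, *Cd14* and *Aif1*. They were taken by name, and every probe set that names 1 of them alone was used, 14 probe sets of 45037 on the array and 10 genes of 18194. Maxillae of ICR mouse fetuses, with the label gender female, were taken at E14, grown as explants in BGJb medium with penicillin and streptomycin, and microdissected at 3 stages, with 1 Affymetrix array for each. The first array holds the shelf edge before fusion, at 5 h in culture; the others hold median tissue, at 24 h while the shelves were fusing and at 60 h when they had fused. Stage, hours in culture and the piece of tissue change together and cannot be told apart, and since no stage was replicated there is no test between stages. The methods name several samples per stage and RNA extraction from each palate, and do not give how many of these were put on an array.

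The values are MAS5 signals, a brightness per probe set on a linear scale, brought here to one trimmed mean. The floor of an array, the 95th percentile of 83 receptor probe sets (bitter taste, olfactory, vomeronasal), was 19.35, 13.31 and 14.57 before, during and after fusion, the order used for all triplets of signals below. Ratios used the floor in place of any lower signal, and are then bounds. Between probe sets of one gene, log2 ratios had an SD of 0.367 from before to during fusion, 0.462 from before to after and 0.442 from during to after. This SD is the only measure of error in these data, and it does not hold the differences between embryos. The 8 epithelial and 8 mesenchymal genes used to check the tissue were above the floor on each array. The Y-linked genes *Eif2s3y*, *Kdm5d* and *Uty* were also above the floor on each array, beside *Xist*, against the label of female tissue. The 5′ over 3′ signal of the beta-actin control was 0.718 before, 0.713 during and 0.718 after fusion.

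Macrophages of the embryo arise from yolk sac and fetal liver precursors, settle in tissues early and engulf dying cells, which are removed in large numbers where tissues are remodelled. Their survival depends on the receptor encoded by *Csf1r*, and their lineage on the transcription factor PU.1. *Adgre1* encodes a surface receptor, the classical marker of mouse macrophages. *Cd68* and *Lyz2* belong to the lysosome and to bacterial killing, the C1q chains open the classical complement pathway and coat dying cells, *Mrc1* and *Cd14* encode receptors for sugars and for lipopolysaccharide, and *Aif1* encodes the actin-bundling protein IBA1. None of these is fully restricted to macrophages. *Lyz2* is also used by neutrophils and some secretory epithelia, *Cd14* by several stimulated cell types and *Mrc1* by some endothelia.

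Promoter windows from RefSeq (GRCm38.p6, 250 bases before to 50 after the start) are shown for the pair of lysosomal genes with the highest ratios, for the copy of *Lyz2* on the same chromosome, and for 2 of the C1q genes, which lie next to each other on chromosome 4 in the order *C1qb*, *C1qc*, *C1qa*. Capitals mark AGGAAGT or its reverse complement ACTTCCT, letters that hold the GGAA core bound by PU.1 and other ETS factors; this motif was chosen after the sequences had been read.
Cd68, chr11:69666121-69666420, minus strand: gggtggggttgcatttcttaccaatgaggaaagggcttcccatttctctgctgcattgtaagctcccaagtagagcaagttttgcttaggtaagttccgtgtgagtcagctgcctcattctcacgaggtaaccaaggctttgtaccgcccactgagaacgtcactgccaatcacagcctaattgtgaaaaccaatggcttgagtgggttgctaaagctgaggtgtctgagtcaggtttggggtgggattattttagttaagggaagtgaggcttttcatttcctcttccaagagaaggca
Lyz2, chr10:117282223-117282522, minus strand: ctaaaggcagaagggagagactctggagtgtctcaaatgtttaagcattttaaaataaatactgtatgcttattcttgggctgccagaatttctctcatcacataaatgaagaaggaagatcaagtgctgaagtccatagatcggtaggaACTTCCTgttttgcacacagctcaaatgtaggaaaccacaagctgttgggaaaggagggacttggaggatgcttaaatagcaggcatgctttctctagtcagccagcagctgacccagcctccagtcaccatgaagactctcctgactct
Lyz1, chr10:117292819-117293118, minus strand: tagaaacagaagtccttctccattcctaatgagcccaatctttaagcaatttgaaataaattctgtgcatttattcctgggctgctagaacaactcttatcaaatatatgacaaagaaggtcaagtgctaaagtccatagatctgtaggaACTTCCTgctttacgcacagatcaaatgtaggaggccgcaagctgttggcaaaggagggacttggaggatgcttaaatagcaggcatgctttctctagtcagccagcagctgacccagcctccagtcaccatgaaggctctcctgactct
C1qb, chr4:136886151-136886450, minus strand: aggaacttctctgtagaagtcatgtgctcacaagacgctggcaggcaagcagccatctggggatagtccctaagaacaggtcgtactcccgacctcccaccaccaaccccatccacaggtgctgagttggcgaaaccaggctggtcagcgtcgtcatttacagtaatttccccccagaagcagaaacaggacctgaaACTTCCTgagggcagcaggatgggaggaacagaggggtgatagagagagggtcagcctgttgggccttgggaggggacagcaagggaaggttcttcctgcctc
C1qc, chr4:136892865-136893164, minus strand: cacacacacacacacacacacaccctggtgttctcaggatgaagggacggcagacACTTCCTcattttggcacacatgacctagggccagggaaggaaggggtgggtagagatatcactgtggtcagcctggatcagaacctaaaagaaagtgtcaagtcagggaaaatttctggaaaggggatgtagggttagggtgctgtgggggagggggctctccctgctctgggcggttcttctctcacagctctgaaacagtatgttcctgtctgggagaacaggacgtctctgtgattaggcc
Windows of 6 of the macrophage genes were searched on both strands, those of *Cd68*, *Lyz2*, *Mrc1*, *C1qb*, *C1qc* and *Aif1*. Of these, 4 held the motif, against 9.35% of 32851 windows of the same length. It began 100 bases upstream of the start in *Lyz2*, 53 in *C1qb*, 195 in *C1qc* and 211 in *Mrc1*. It was not found in the windows of *Cd68* and *Aif1*, though the printed window of *Cd68* holds GGAA outside this motif. The longer form GAGGAAGT, which overlaps it, stood in 1 of the 6, that of *C1qc*, against 3.20% of all windows. None of the 6 held TATAAA, which 13.6% of all windows held. A match of letters is not a binding site, and no binding was measured here. The windows of *Lyz1* and *Lyz2* were identical at 82.5% of aligned positions, against 46.1% for *C1qb* and *C1qc*.

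All 10 macrophage genes had a higher signal after fusion than before it, and each ratio was over 2-fold. Of all genes above the floor on at least 1 of these arrays, 12.6% were over 2-fold higher. During fusion, 5 of the 10 were over 2-fold higher than before it, against 5.48% of all genes. Between the arrays during and after fusion, 5 of 10 were over 2-fold higher after fusion, against 8.73%. None of the 10 was over 2-fold lower in any comparison, where 3.19% of all genes were lower during than before fusion, 9.62% after than before and 5.08% after than during. The median log2 ratio of the 10 genes was 1.00 during and 1.64 after fusion to before fusion, and 0.98 for after over during fusion. Over all genes these medians were -0.05, -0.09 and -0.03. Over probe sets, 6 of 14 were over 2-fold higher during fusion, 12 of 14 after fusion and 6 of 14 between the arrays during and after fusion, against 4.74%, 9.69% and 6.61% of all probe sets. In tissue of many cell types, more macrophages, more RNA per macrophage and signal from other cells that use these genes cannot be told apart. The 3 comparisons share arrays and are not independent of each other. The 10 genes were also chosen with earlier results of these data known. Their counts beside the shares of all genes are therefore a description and not independent evidence, and the same holds for the lists below.

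Marker genes of the other cells of the tissue also differed between the arrays. After fusion, 4 of 8 epithelial genes were over 2-fold higher than before it (median log2 ratio 1.07), with none lower. Of 8 mesenchymal genes, 6 were over 2-fold lower (median -2.35) and none was higher, and of 5 erythroid genes 4 were lower (median -2.73). During fusion, 2 epithelial genes were higher, and 4 mesenchymal and 2 erythroid genes lower. The shares of all genes beside these counts were 12.6% higher and 9.62% lower after fusion, and 5.48% higher and 3.19% lower during fusion. The part of these differences in the ratios of the macrophage genes was not tested.

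**Figure D1:**
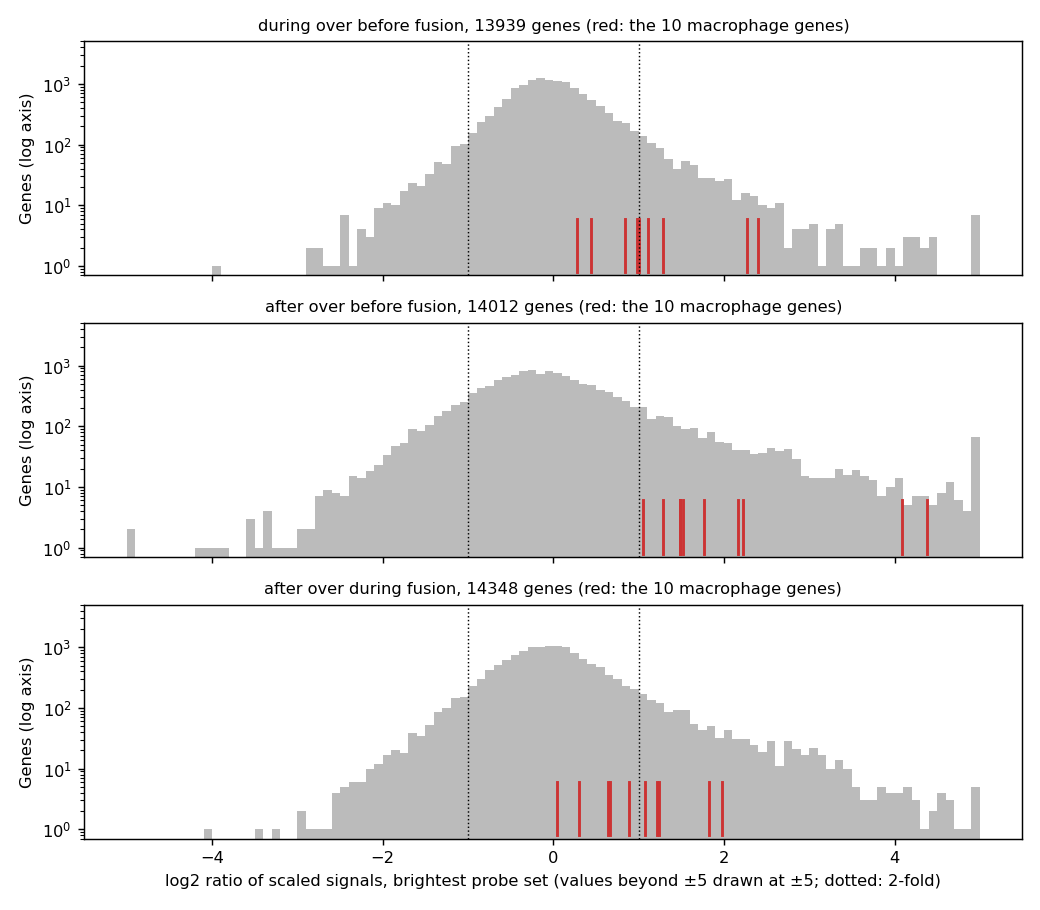
Distribution of the log2 ratio of scaled signals over all genes (grey, log axis of counts) in each comparison, with the 10 macrophage genes as red ticks and 2-fold as dotted lines. After fusion all 10 ticks lie beyond 2-fold, while during fusion 5 do and several stand close to the line.

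The count during fusion rests on ratios near the threshold. *C1qa*, at 2.01, lay just inside it, and *C1qb* and *Cd14*, both at 1.98, just outside. Scaling the arrays in another way moved this count between 2 and 8 of 10, with 2 when the poly-A controls were made equal and 8 with the signals as deposited. *Cd68* and *Lyz2* were over 2-fold higher during fusion under every scaling and floor tried, and *Csf1r* and *Aif1* under none.

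The lysosomal genes had the largest ratios of the 10. *Cd68*, which encodes macrosialin, a glycoprotein of late endosomes and lysosomes, gave scaled signals of 28.1, 136 and 478. *Lyz2*, which encodes the lysozyme of macrophages, gave 37.3, 197 and 776. Both were lowest before and highest after fusion. The ratio to before fusion was 4.84 during and 17 after fusion for *Cd68*, and 5.27 and 20.8 for *Lyz2*. Of the genes above the floor on both arrays, 0.536% had a larger ratio during fusion than *Cd68* and 0.445% a larger one than *Lyz2*; after fusion the shares were 0.358% and 0.308%. The signals of both before fusion stood little above the floor of that array, where MAS5 signals are least exact.

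The lysozyme genes carry a doubt about which copy a signal belongs to. Mouse has a near copy of *Lyz2*, *Lyz1*, known from Paneth cells of the gut. Of its 3 probe sets, 2 are of the kind that Affymetrix marks as able to bind related transcripts. The single probe set of *Lyz2* has no such mark. The 2 marked *Lyz1* probe sets had signals of 30.5, 343 and 1434, and of 10.5, 97.6 and 870. The probe set of *Lyz1* without this mark was under the floor on all 3 arrays, with signals of 13, 1.47 and 11.7. How far each copy contributes to the signals of the marked *Lyz1* probe sets, or to that of *Lyz2*, was not tested.

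The C1q genes were higher during fusion and changed less after it. C1q is built from 3 kinds of chain, encoded by *C1qa*, *C1qb* and *C1qc*. *C1qa* gave scaled signals of 97.1, 195 and 201. The brightest probe set of *C1qb* had 83.7, 165 and 204, and *C1qc* had 47.5, 102 and 162. During fusion the ratios to before fusion lay close together, at 2.01 for *C1qa*, 1.98 for *C1qb* and 2.15 for *C1qc*. Between the arrays during and after fusion they were 1.03, 1.24 and 1.58, and only that of *C1qc*, 0.66 on the log2 scale, was larger than the SD between probe sets. *C1qb* has 2 further probe sets, both marked as able to bind related transcripts. Their signals were 77.9, 141 and 129, and 45.5, 116 and 111, so that both were slightly lower after than during fusion, with ratios of 0.914 and 0.957. After fusion the C1q ratios to before fusion were 2.07, 2.44 and 3.41 for *C1qa*, *C1qb* and *C1qc*. The difference of 0.72 on the log2 scale between *C1qc* and *C1qa* compares with an SD of 0.653 for the difference of 2 ratios, derived from the spread between probe sets.

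Among the surface receptors, *Csf1r* had the smallest ratio during fusion. *Csf1r*, the receptor for the growth factors CSF1 and IL-34, gave scaled signals of 196, 236 and 551 on its brightest probe set. Its ratio was 1.21 during fusion, within the spread between probe sets, and 2.81 after fusion. The other 2 *Csf1r* probe sets had 80.8, 90.2 and 206, and 64.0, 90.1 and 116, with ratios to before fusion of 1.12 and 1.41 during and 2.54 and 1.81 after fusion. The ratio of 1.41, 0.49 on the log2 scale, was larger than the SD between probe sets of 0.367. All 3 probe sets thus had their lowest signal before and their highest after fusion. *Adgre1* had signals of 57.6, 103 and 161, with ratios of 1.79 during and 2.79 after fusion. *Mrc1*, the mannose receptor of macrophages that take up debris, had 42.1, 103 and 190, with ratios of 2.43 and 4.51. *Cd14*, the co-receptor that hands lipopolysaccharide to TLR4, had 48.9, 97.0 and 229, with ratios of 1.98 and 4.67. From during to after fusion, the ratios were 2.33 for *Csf1r*, 2.36 for *Cd14*, 1.85 for *Mrc1* and 1.56 for *Adgre1*.

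*Aif1* was the only one of the 10 with a signal under the floor. Its single probe set, marked as shared among transcripts, had scaled signals of 17.8, 26.4 and 55.4. The first lies under the floor, so its ratios to before fusion are bounds of at least 1.36 during and at least 2.86 after fusion. Between the arrays during and after fusion, both above the floor, the ratio was 2.10.

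**Figure D2:**
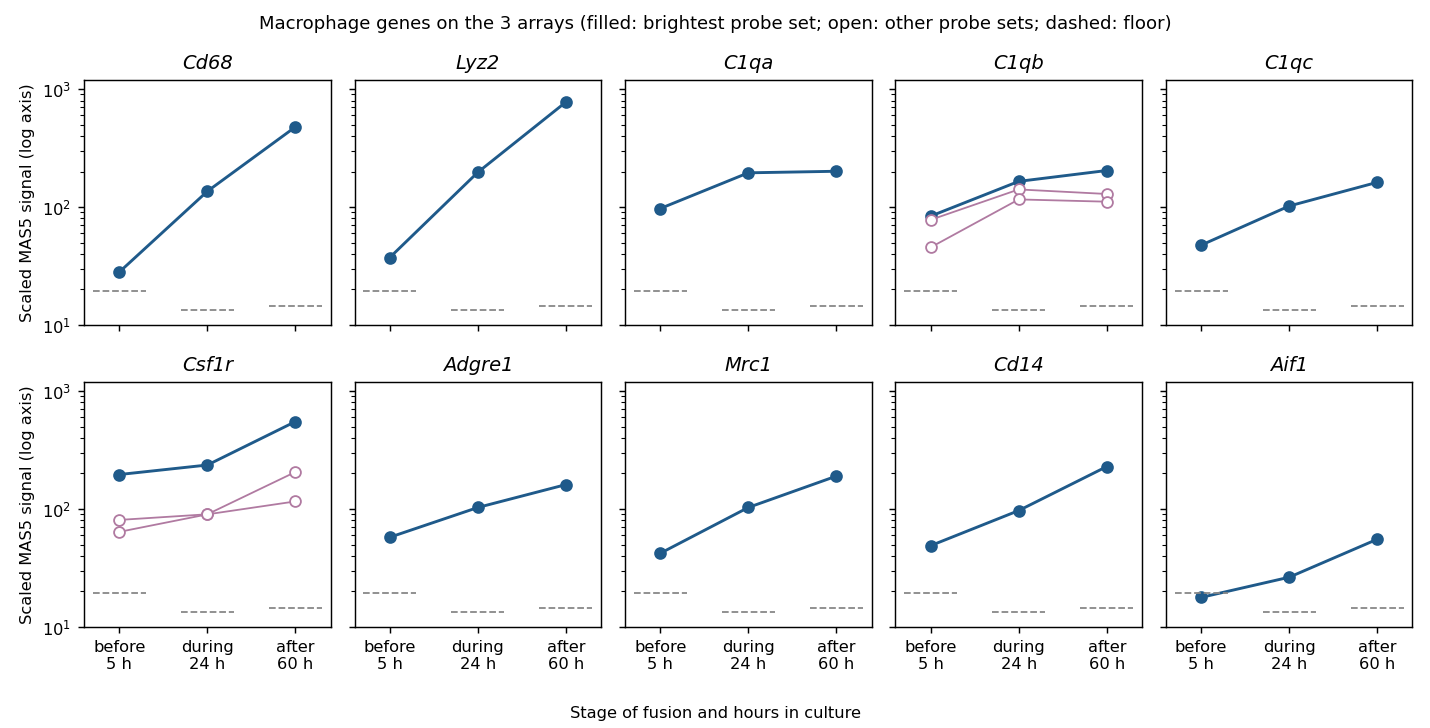
Scaled MAS5 signal (log axis) of every probe set of the 10 macrophage genes against stage and hours in culture, 1 array per stage, with filled points for the brightest probe set of a gene, open points for its others and dashed lines for the floor of each array. *Cd68* and *Lyz2* climb at both steps, *C1qa* is level between the arrays during and after fusion, and *Aif1* starts under the floor. The brightest *Csf1r* probe set is nearly level between the first 2 arrays.

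The 10 genes therefore did not share one ratio, and scaling each array by a single factor leaves the differences among them unchanged. Quantile normalization, which is not such a factor, moved them slightly. For after over before fusion it gave *Lyz2* a log2 ratio of 4.31 against 4.38, and *C1qa* 1.03 against 1.05. Differences that involve *Aif1* also depend on the floor. After fusion, the log2 ratio of *Cd68* to before fusion exceeded those of *C1qa*, *C1qb* and *C1qc* by 3.04, 2.80 and 2.32, and that of *Lyz2* exceeded them by 3.33, 3.09 and 2.61. Each is over 3 times the SD of 0.653 that the spread between probe sets gives for such a difference. That SD is pooled over genes of all signal levels. *Cd68* and *Lyz2* have 1 probe set each, with signals before fusion of 28.1 and 37.3 beside a floor of 19.35. How well the SD holds for such low signals was not tested, and the doubt about the lysozyme copies applies here too. Against *Csf1r*, the excess after fusion was 2.60 for *Cd68* and 2.88 for *Lyz2*. Between the arrays during and after fusion it was 0.60 and 0.76, near the corresponding SD of 0.625. Against the brightest *Csf1r* probe set, the log2 ratio of *C1qa* was larger by 0.74 from before to during fusion (SD 0.519) and smaller by 1.18 from during to after fusion (SD 0.625). Against the second *Csf1r* probe set it was larger by 0.85 and smaller by 1.15, but against the third, larger by 0.51 and smaller by 0.32, both within these SDs, so this difference in timing rests on the choice of probe set. *Cd14* and *Csf1r* differed by 0.02 from during to after fusion.

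**Figure D3:**
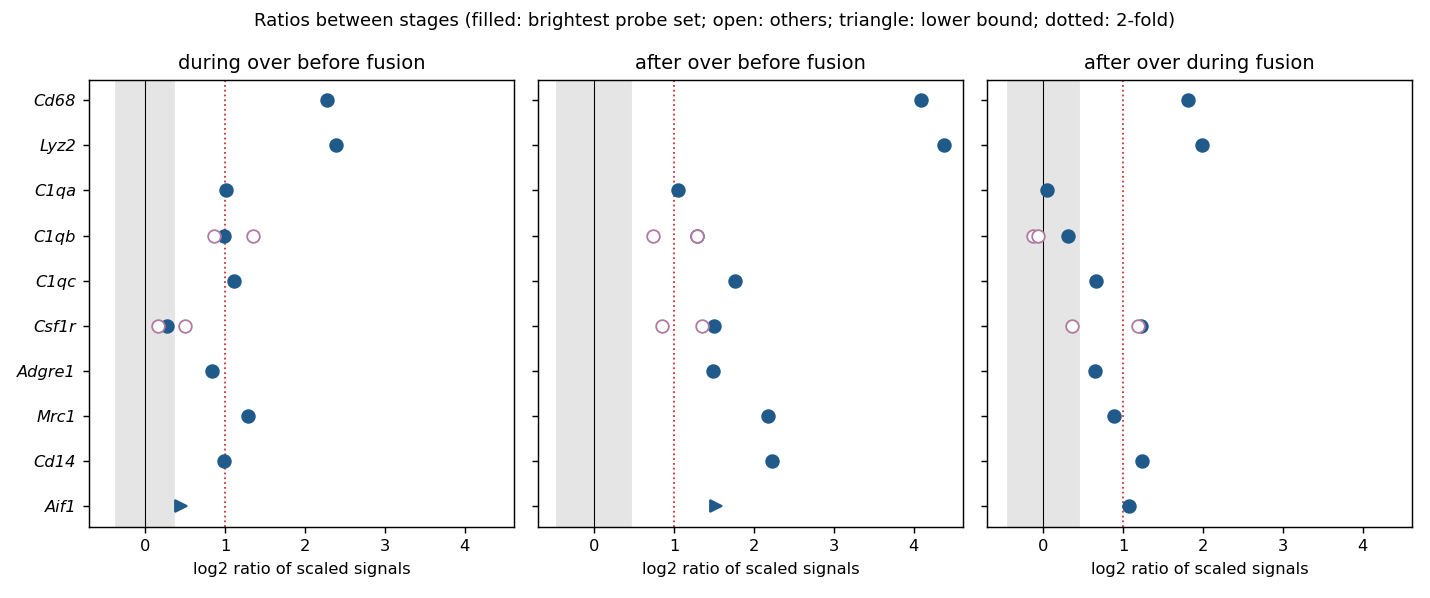
Log2 ratio of scaled signals for every probe set of the 10 macrophage genes in the 3 comparisons (filled, brightest probe set; open, others; triangle, lower bound). The grey band is 1 SD of the log2 ratios among probe sets that share a gene (0.367, 0.462 and 0.442) and the dotted line is 2-fold; *Cd68* and *Lyz2* lie to the right of the other 8 in each panel, and *C1qa*, 3 *C1qb* probe sets and 1 of *Csf1r* fall in the band for after over during fusion.

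Genes of the same pathways were counted over lists of known function. From each, up to 4 genes with the highest mean signal are named per list. *Spi1*, *Il34*, *C1ra*, *Tlr4*, *Ly96*, *Ptprc*, *Ccr2*, *Scgb1a1*, *Muc5b* and the fainter neutrophil genes are named as well, as direct partners or lineage genes. Genes under the floor on every array are also named for the Toll-like receptor, resident macrophage, engulfment and pan-leukocyte lists. All these additions were chosen after their values were seen. For the ligands and receptors of the CSF family, 4 of 6 genes were above the floor on an array. None of the 3 compared was past 2-fold during fusion, and 2 of 4 were higher after fusion, against 5.48% and 12.6% of all genes, the shares beside which the counts of higher genes in the next lists also stand. Counts of lower genes stand beside 3.19% of all genes during and 9.62% after fusion. *Csf1*, a ligand of the *Csf1r* product, had signals of 61.3, 93.9 and 153, with ratios of 1.53 during and 2.50 after fusion. *Il34*, the other ligand, was under the floor on all 3 arrays. *Csf2rb*, the shared beta chain of the GM-CSF receptor, had ratios of 1.22 and 2.74, whereas *Csf2ra* had 0.868 and 0.891.

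Of the transcription factor genes of the lineage, 2 of 8 were over 2-fold higher during fusion (5.48% of all genes) and 3 of 9 after it (12.6%), with no gene past 2-fold downward. *Spi1*, which encodes PU.1, had signals of 42.9, 52.5 and 116. Its ratios, 1.22 during and 2.71 after fusion, are close in value to those of the brightest *Csf1r* probe set, 1.21 and 2.81. The third *Csf1r* probe set had 1.41 and 1.81, and this likeness was looked for after the values were seen. *Cebpb*, an inducible factor found in many cell types, had ratios of 2.89 and 6.13, *Cebpa* 1.58 and 1.96, *Maf* 2.27 and 1.66 and *Runx1* 1.74 and 1.19. The last 4 are also used by epithelium, cartilage or bone.

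Of the complement genes around C1q, 2 of 9 were over 2-fold higher during fusion. At the last stage, 5 of 10 exceeded the first array by that much and 1 was lower. The C1 proteases had ratios of 1.52 during and 3.57 after fusion for *C1ra* and of 2.66 and 4.12 for *C1s1*. *Serping1*, the C1 inhibitor, had signals of 84.4, 89.2 and 234, with ratios of 1.06 and 2.77. *Cd93*, a receptor of endothelial and myeloid cells, had 0.629 and 1.37, and the chaperone gene *Calr* 0.662 and 0.864. Of the CD14 and Toll-like receptor genes, 1 of 9 was higher during fusion, and 4 of 9 were higher and 1 was lower after it. *Tlr7*, also of this list, was under the floor on all 3 arrays. *Tlr4* had ratios of 1.38 and 3.16. Its partner *Ly96* had signals of 30.2, 65.0 and 65.0. *Lbp*, the lipopolysaccharide-binding protein, had 95.9, 71.0 and 373, while *Tlr2* (115, 117 and 96.6), *Myd88* (ratios of 1.57 and 1.61) and *Traf6* (1.21 and 0.667) stayed within 2-fold.

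Further lists hold other genes of phagocytes. Of 9 genes for Fc receptors and immunoreceptor adaptors, 6 were higher after fusion and none was lower; during fusion 4 of 8 were higher. *Tyrobp*, the DAP12 adaptor of myeloid receptors, had signals of 93.3, 221 and 599, the Fc receptor gene *Fcgr3* 35.3, 122 and 262, and the common gamma chain *Fcer1g* 68.3, 146 and 244. These correspond to ratios after fusion of 6.42, 7.41 and 3.57. The inhibitory receptor *Fcgr2b* had ratios of 1.12 and 2.15. Of 11 phagosome and lysosome genes, 2 passed 2-fold upward during fusion and 7 after it, with none past it downward, and with *Ctss*, a cathepsin of antigen-presenting cells, at 2.59 and 6.93, the more widely used cathepsins *Ctsb* and *Ctsd* at 1.35 and 2.51 and at 1.46 and 2.88, and *Cyba* at 1.68 and 1.74. Among 10 genes of resident and fetal macrophages, *Lyve1* was under the floor on all 3 arrays. The other 9 held 3 genes past 2-fold upward during fusion and 6 after it, and no gene past it downward. *Pf4*, shared with platelets, had ratios of 2.50 and 4.12, *Ms4a7* 3.19 and 4.87, the heme oxygenase gene *Hmox1* 2.36 and 7.09 and the iron exporter gene *Slc40a1* 1.42 and 2.08. Among 16 scavenger and engulfment genes, *Cd163*, *Marco* and *Timd4* were under the floor on all 3 arrays. The other 13 held 3 genes past 2-fold upward during fusion and 4 after it, again with no gene downward. *Gas6*, a bridging ligand between dying cells and the receptors *Axl* and *Mertk*, had ratios of 3.15 and 6.81, while *Axl* had 0.624 and 0.635, *Mfge8* 0.962 and 1.13 and *Lrp1* 1.51 and 1.31.

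Genes of leukocytes in general were counted next. Of the pan-leukocyte list, 1 of 9 was over 2-fold higher during fusion and 6 of 11 after it, and none was lower. Among its 13 genes, *Itgam* and *Hcls1* were under the floor on all 3 arrays. *Ptprc*, which encodes CD45, had signals of 19.5, 38.9 and 68.7, the first just above the floor, and a ratio of 3.52 after fusion. *Laptm5* had ratios of 1.66 and 3.70 and *Lcp1* of 1.00 and 1.72. *Coro1a* (0.779 and 0.967) and *Arhgdib* (1.01 and 0.919) stayed within 2-fold.

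Markers of other cells that carry some of the same genes were read beside these. Of 9 neutrophil genes with a probe set, 1 was above the floor before and 5 after fusion, and of 6 compared after fusion 4 were over 2-fold higher and 1 was lower; during fusion 1 of 5 was higher. The summed signal of the list, which adds unlike probe sets, was 73.5, 176 and 1131. *S100a8* had signals of 7.80, 58.5 and 213, *S100a9* 1.78, 35.4 and 101, and *Ngp* 10.7, 15.6 and 93.9. *Ltf*, at 2.56, 25 and 668, is also made by glands. Of the other 5 genes, *Camp*, *Cxcr2* and *Mmp8* were under the floor on all 3 arrays, *Elane* was above it only after fusion, at 20.1, and *Mpo*, at 29.2, 21.9 and 8.48, only before and during fusion. Of the secretory genes of airway and gland, 3 of 7 were over 2-fold higher during fusion and 4 of 6 after it, the latter being *Bpifa1*, *Ltf*, *Lyz1* and *Reg3g*. *Bpifa1* had signals of 37.3, 2606 and 5088, while *Scgb1a1* never passed the floor and *Muc5b* did so only during fusion, at 19.7. The part of neutrophils and of secretory epithelium in the values of *Lyz2* and *Cd14* was not tested.

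Osteoclasts, which also descend from *Csf1r*-bearing cells and hold CD68, were represented by 8 of 10 genes above the floor, of which 1 of 7 was higher during and 2 of 8 after fusion. *Acp5* had signals of 23.5, 84.9 and 147 and *Ctsk* 174, 205 and 590. *Nfatc1*, at 113, 164 and 87.6, and *Tnfrsf11a*, at 25.5, 26.4 and 27.3, stayed within 2-fold. *Calcr*, a marker of mature osteoclasts, was under the floor on all 3 arrays. The median log2 ratio of the osteoclast list after fusion was 0.135. Of 12 lymphocyte genes, 4 were above the floor on an array. The T cell gene *Cd3e* and the B cell gene *Cd79a* were under the floor on each. *Cd79b*, the partner chain of *Cd79a*, had 9.92, 17.6 and 10.4 and was above the floor only during fusion. *Cd3d* was above it during (20.5) and after fusion (14.9). *Cd8a* had 33.7, 38.5 and 37, and *Il7r*, the 1 gene past 2-fold, had 8.47, 14.8 and 40.2. Of 9 mast cell genes, 6 were above the floor on an array and none was past 2-fold against before fusion. *Kit* (152, 139 and 160) and *Gata2* (96.9, 128 and 134), both also used by other cells, were above it throughout, *Cma1* had 2.45, 21.4 and 26.6, and *Cpa3* was above it only after fusion, at 29.8. Of 6 microglial genes, 3 were above the floor on an array and none was past 2-fold against before fusion, with *P2ry12* under it on each, *Tmem119*, which osteoblasts also express, at 510, 438 and 425, and *Olfml3* at 818, 609 and 451. No gene of the dendritic cell list, of which 3 of 6 were above the floor on an array, was past 2-fold. Of 4 monocyte genes with a probe set 2 were above the floor, with *Plac8* at 32.8, 76.3 and 134 and *Ccr2* under it on all 3 arrays. Of 9 endothelial genes, a group that can share *Mrc1*, 4 were over 2-fold lower during fusion (3.19% of all genes) and 2 after it (9.62%), and no gene was past 2-fold upward.

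**Figure D4:**
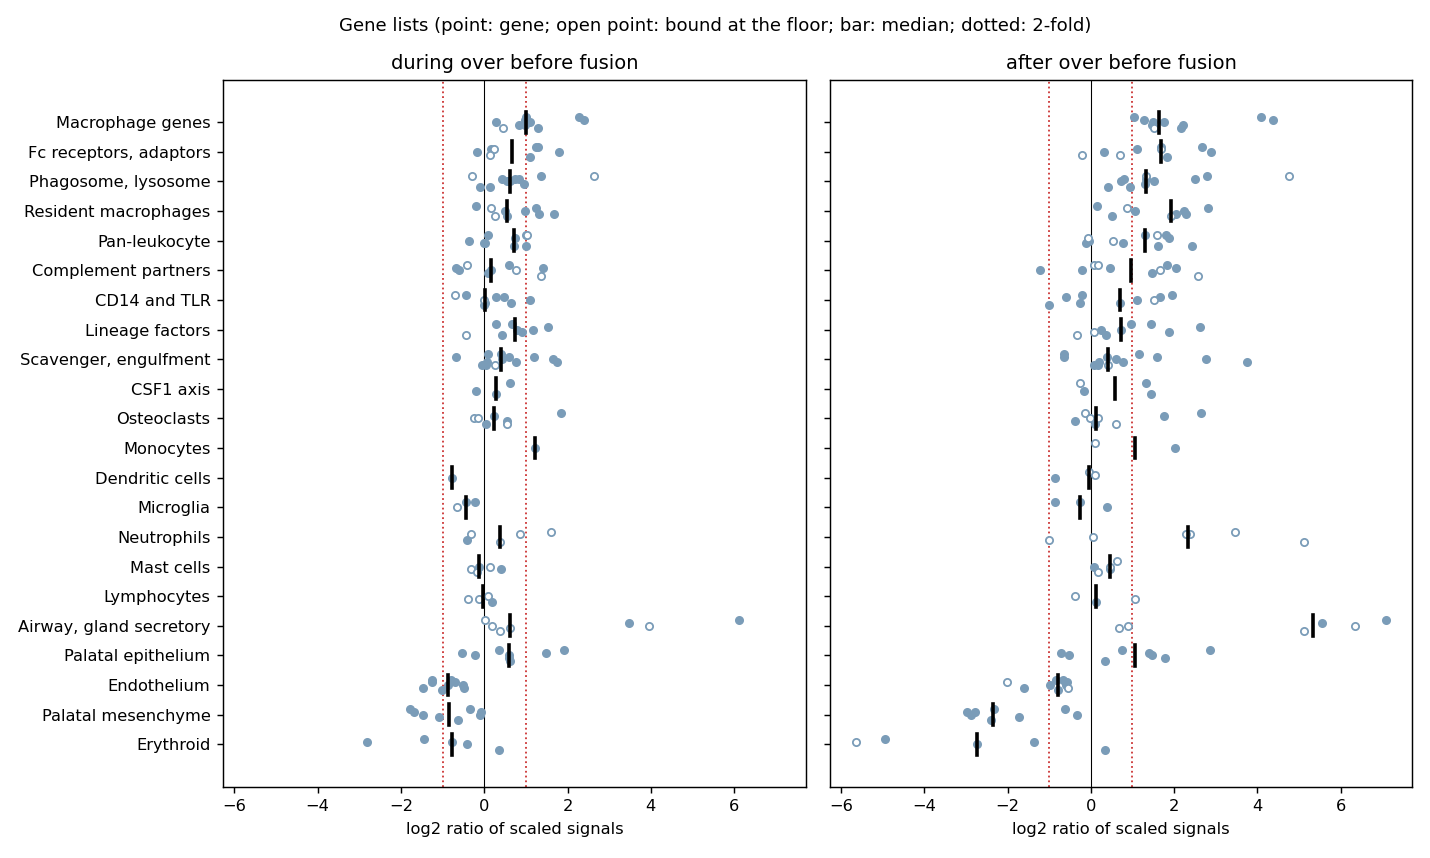
Genes of each list, by log2 ratio to the first array, during (left) and after fusion (right), with points for genes, open points for ratios with a side at the floor, bars for list medians and dotted lines at 2-fold. Lists of macrophage function have medians from 0.41 to 1.92 after fusion (1.64 for the 10 macrophage genes). Genes under the floor on both arrays of a comparison have no point and do not enter the medians. Several other lists also lie above 0, among them airway and gland (5.33), neutrophils (2.33) and epithelium (1.07). Endothelium (-0.78), palatal mesenchyme (-2.35) and erythroid genes (-2.73) lie below 0. The airway and gland list holds *Lyz1* by a marked probe set and shares *Ltf* with the neutrophil list.

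The genes with the pattern nearest to the median of the 10, among 8570 others above the floor on all arrays with a mean signal over 100, were *Mfsd6*, *Nt5dc3*, *Blvrb*, *Gcnt2*, *Retsat*, *Qsox1*, *Ube2t* and *Crispld2*. Likeness was the distance between pairs of log2 ratios to before fusion, and it ran from 0.03 to 0.09 for these. *Blvrb*, a biliverdin reductase, had signals of 230, 462 and 741. With 3 arrays the measure holds only 2 independent values a gene, and none of the 8 belongs to a list used here.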

How the data were processed

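RNA of palatal tissue was hybridized to 3 Affymetrix mouse arrays, 1 per stage. Per the labels and methods, the authors computed the deposited intensity values, 1 linear signal per probe set with background correction, by the MAS5 algorithm; a scaling target is not given in the sources used here. Comparisons made by the authors were not used.

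Of 45101 probe sets, 64 are controls, 34958 name 1 gene, 932 several and 9147 none; 34754 symbols were updated through gene IDs (GRCm38.p6, names and promoter windows only). Arrays were scaled to one trimmed mean, leaving out 2% at each end, by factors of 1.115, 0.9183 and 0.9863, and the floor replaced lower signals. A gene is represented by its probe set with the highest mean signal. Deposited trimmed means were 123.6, 150.0 and 139.7. Above the floor lay 56.9%, 65.8% and 61.7% of probe sets before, during and after fusion. With 1 array per stage no test was made, and the number of arrays limits the precision. The steps were tested on simulated data. The 10 genes and the lists were chosen with earlier results of these data known. The naming rule covered all probe sets of the 10 genes, up to 4 genes per list by mean signal, and defining markers of other cells. It was not kept throughout. Some genes outside it, listed in the Results, were chosen after their values were seen. Some genes within it are not named, among them those of the dendritic and endothelial lists. Other scalings, floors, a median over probe sets and a 4-fold threshold were set as alternatives. Python 3.11.15, numpy 2.4.6 and pandas 2.3.3 were used.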

Additional observations from a re-analysis of the deposited data

How the results depend on the processing

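Each of the 10 genes stayed over 2-fold higher after than before fusion under 6 of the 8 other scalings, floors and choices of probe set; with the hybridization controls *C1qa*, and with the poly-A controls *C1qa* and *C1qb*, fell short, leaving 9 and 8. From before to during fusion, 5 genes became 3 (one median), 2 (poly-A controls) or 8 (deposited signals). A 4-fold threshold left 2 genes during and 4 after fusion against before it, and 0 from during to after. The share of all genes past 4-fold was not counted, so these counts cannot be set beside it. The median log2 ratio from before to during fusion was 0.69 with the poly-A controls and 1.28 as deposited, against 1.00. From before to after it was 1.25 and 1.82, against 1.64, and from during to after 1.13 (one median) and 0.79 (hybridization controls), against 0.98. These scalings move all genes together: with the poly-A controls the median log2 ratio of all genes was -0.35 during and -0.48 after fusion, and as deposited 0.23 and 0.09. The share of all genes over 2-fold higher during fusion was 3.09% with the poly-A controls (8.22% lower), 4.40% with one median (4.43% lower) and 9.74% as deposited (1.45% lower). After fusion, against before it, the share higher was 8.19% with the poly-A controls (22% lower) and 11.2% with the hybridization controls (11.8% lower). Of 239 ratios of single genes under these alternatives, 238 moved by less than the SD between probe sets. These 239 are not independent checks. A change of floor or of probe set choice can leave a gene with 1 probe set unchanged, and a scaling factor shifts all genes alike. *Aif1* for after over before fusion moved to 1.02 on the log2 scale with the floor at the median of each array. With that floor *Aif1* had no ratio for during over before. No paired analysis was possible because there is 1 array per stage.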
